A study of Mus musculus with 4 samples.

Results

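The hypoxia response genes described here are 34 genes that the oxygen sensing machinery uses or that low oxygen switches on, other than the enzymes of glycolysis. They were chosen by gene name, with no measured value in the rule: every probe named for one of the 34 was taken, and each gene was represented by its brightest probe. All 34 had a probe on the array, out of 29924 named genes. Of these 34, 27 were well above background on all 4 arrays, 2 (Egln3 and Apold1) on 3 arrays, 3 (P4ha2, Plod1 and Plod2) on 2 arrays and 2 (Lox and Mxi1) on 0 arrays. The 32 genes above background on at least 2 arrays were tested, among 15982 tested genes in all. Egln3, P4ha2 and Plod2 were well above background on both arrays labelled Ackr4ko and on 1, 0 and 0 of the 2 labelled WT, so P4ha2 and Plod2 passed that requirement through one group.

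Cells sense oxygen through prolyl hydroxylases, encoded by Egln1, Egln2 and Egln3, which use oxygen to modify the alpha subunit of hypoxia inducible factor (HIF) so that the VHL protein marks it for destruction. When oxygen or hydroxylase activity is low, the alpha subunit persists, joins its partner ARNT and binds short DNA letters containing ACGTG or GCGTG near its target genes. Those targets bring glucose into the cell, carry lactate out, remove mitochondria, hydroxylate and cross-link collagen and call for new blood vessels, and some of them, Egln3 among them, feed back on HIF itself. In B lymphocytes HIF is known to be active in oxygen-poor germinal centres and to change with activation.

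RNA came from splenic B cells, purified by magnetic separation and then stimulated for 3 days with anti-IgM (10 µg/mL) and anti-CD40 (10 µg/mL), antibodies that stand in for antigen and T cell help. The group labelled Ackr4ko (2 arrays) came from males lacking Ackr4, an atypical receptor that removes chemokines, aged 73 days in experiment 1 and 71 days in experiment 2. The group labelled WT (2 arrays) came from C57BL/6 males aged 77 and 74 days. Each of the 2 experiments used its own donors and gave 1 array per genotype, both genotypes received the same antibodies and the same medium, and the labels name no low-oxygen treatment and no oxygen level. The allele is not described in the labels, nor is it said whether RNA of several mice was pooled.

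The authors' value table puts the genotypes the other way round from the scanner files. Each of the 4 table columns lay nearest to the scanner array of the opposite genotype in its experiment. The log2 values of such a pair differed with a standard deviation between 0.0203 and 0.12, and those of a column and its own labelled array with one between 0.45 and 0.554. Ackr4 itself does not settle it, since its 2 probes were well above background on 0 of 4 arrays. Directions below follow the scanner files' labels, so Ackr4ko and WT stand for the arrays labelled so, and they turn round if the labels of the value table are the right ones. With the table's own values and column names, 30 of the 32 tested genes turned round (not Epas1 and Plod1) and the median difference was -0.36. The arrays differed in quality as well. Their 75th percentiles of processed signal were 1277 and 740 in Ackr4ko and 916 and 913 in WT. The share of probes above background was 54.9% and 49.5% in Ackr4ko, against 52.6% and 42.2% in WT. The WT array of experiment 2 had 6.24% of its spots marked as outliers, while the other 3 arrays had 1.79% to 2.12%.

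The labelled cell type was checked with markers. All 10 B cell markers were well above background on every array, and log2 of their summed signal was 18.54 and 18.37 in Ackr4ko, against 18.80 and 18.70 in WT. Because these are whole cultures, fewer cells of a kind and less RNA per cell cannot be told apart in any value below.

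Levels below are log2 normalized signal, which is log2 of the processed signal scaled to each array's 75th percentile, listed for experiment 1 and then experiment 2. A difference is the Ackr4ko level minus the WT level on that scale, with its standard error (SE), so 1 is 2-fold. Differences were fitted with limma over all tested genes and called at a Benjamini-Hochberg adjusted p under 0.05. Since each experiment had its own donors, arrays of an experiment form a pair, and the fit with experiment as a block is given where it changes a call. Every SE printed is from the fit without a block.

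The hypoxia response genes were mostly brighter on the arrays labelled Ackr4ko. Their median difference was 0.50, with 0.74 in experiment 1 and 0.17 in experiment 2, against 0.083 over all tested genes, with -0.044 and 0.234. In experiment 1, 14 of 32 were at least 2-fold brighter on the array labelled Ackr4ko, against a background of 3.09% of all tested genes. In experiment 2 it was 8 of 32, against 6.08%. In both experiments it was 7, Egln3, Apold1, P4ha2, Vegfa, Plod2, Ero1l and Fam162a, against 1.28% of all genes. For P4ha2 and Plod2 the WT values behind this were not well above background. With such values set to the lowest signal that counted as well above background on their array, or kept where higher, those 2 genes differed by at least 0.65 and 0.022 in experiment 2, and 5 of the 32 were at least 2-fold brighter in both experiments, against 1.01% of all genes. At least 2-fold dimmer were 0 of 32 in experiment 1, against 1.56% of all genes, and 0 in experiment 2, against 3.98%. Brighter in both experiments by any amount were 20 of 32, against 33% of all genes, and dimmer in both were 6, against 20.9%. Both Ackr4ko values lay above both WT values for 17 of 32 genes, against 19% of all tested genes, and below both for 2, against 10%. P4ha2 and Plod2 are among the 14, 8, 7, 20 and 17 brighter genes, and had to be brighter, since they entered the test through Ackr4ko alone.

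**Figure D1:**
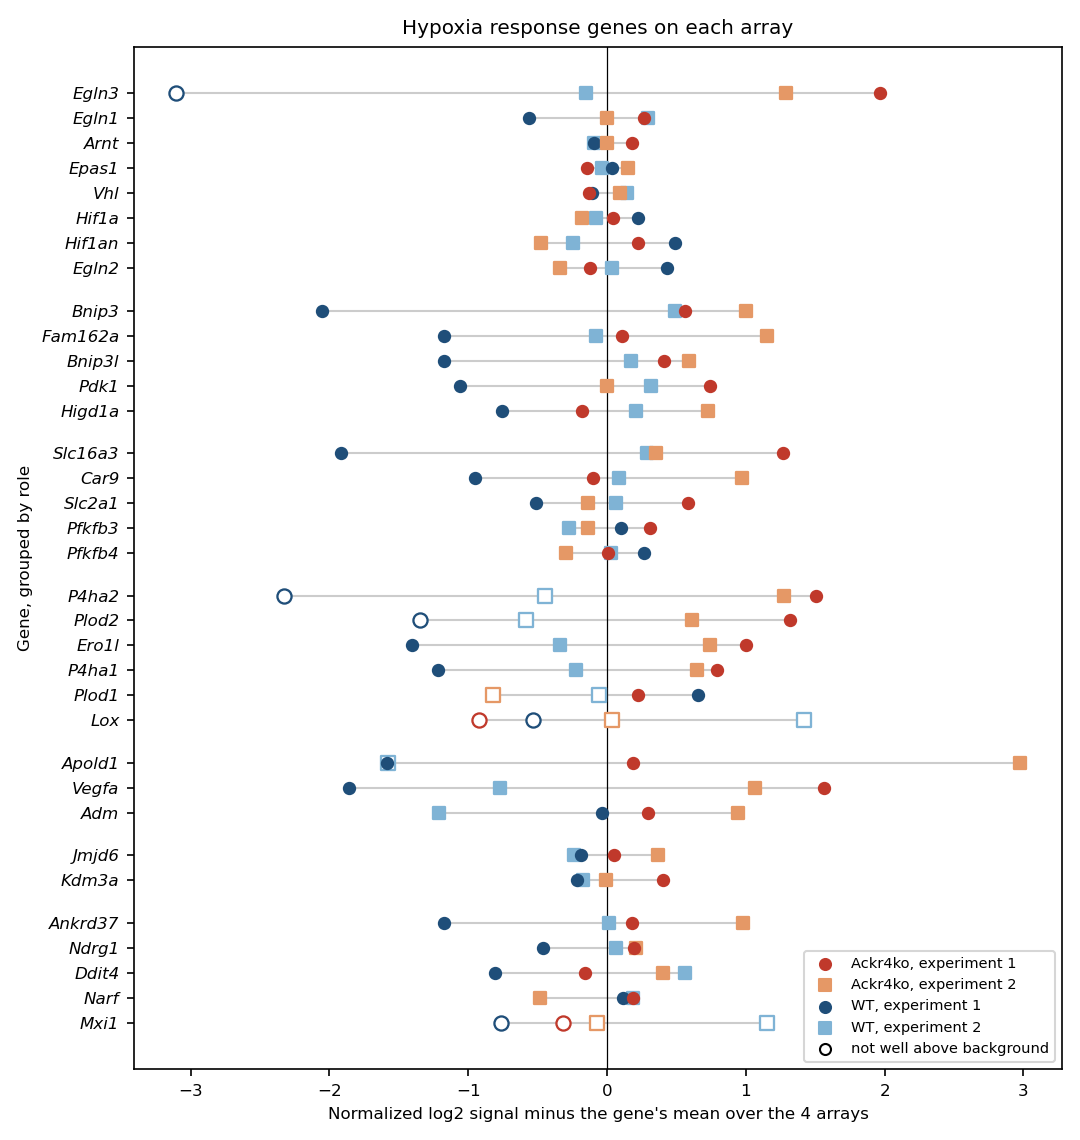
Normalized log2 signal of each of the 34 hypoxia response genes on each array, as the distance from the gene's own mean over the 4 arrays, with genes grouped by role. Filled points are well above background and open points are not. The WT array of experiment 1 (dark blue circles) is the lowest of the 4 for 20 of the 32 tested genes, including Egln3, Bnip3 and Slc16a3.

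Without a block limma called 0 of the 32 genes at the adjusted threshold, where 2 genes (0.0125%) were called in all, and 11 of the 32 had an unadjusted p under 0.05, against 4.58% of all tested genes. With experiment as a block it called 12 of the 32, against 529 genes or 3.31% of all, and 15 had an unadjusted p under 0.05, against 10.6%. The 12 were Egln3, Apold1, P4ha2, Vegfa, Plod2, Ero1l, Slc16a3, Bnip3, P4ha1, Fam162a, Adm and Ankrd37, all brighter on the arrays labelled Ackr4ko, though P4ha2 and Plod2 had to be so, since they entered the test through Ackr4ko alone. P4ha2 and Plod2 are also among the 11 and the 15. That fit has 1 residual degree of freedom per gene and gives every gene the same variance, so a gene's own spread does not enter its p. After quantile normalization it called 0 genes, with 1447 at an unadjusted p under 0.05. With 2 arrays per group the smallest two-sided exact permutation p for a single gene is 0.333.

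The core of the oxygen sensing machinery split into Egln3 and the rest. Egln3, the prolyl hydroxylase that is itself a HIF target, was at 9.80 and 9.13 in Ackr4ko and at 4.74 and 7.69 in WT, where the value of 4.74 was not well above background. The groups did not overlap, and the WT arrays stood further from each other than the Ackr4ko arrays did. The difference was 3.25 ± 0.80 (SE, n = 2 each, limma adjusted p = 0.429, and 1.42e-17 with experiment as a block), with at least 5.07 in experiment 1 and 1.44 in experiment 2, so the mean is a lower bound too. Without the WT array of experiment 1 the difference was 1.78. A second Egln3 probe gave 3.17. The Egln3 probe lies on chromosome 12 at 55280953 to 55281012 of the mm9 build.

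The other prolyl hydroxylases did not share that pattern. Egln1, usually the main regulator of HIF, was at 8.01 and 7.75 in Ackr4ko and at 7.18 and 8.04 in WT, a difference of 0.27 ± 0.39 whose sign was opposite in the 2 experiments. Egln2 was at 13.74 and 13.52 in Ackr4ko and at 14.29 and 13.90 in WT. Its Ackr4ko values lay below both WT values, by a mean of 0.47, with an SE of 0.34. Neither Egln1 nor Egln2 passed the test with or without the block. Hif1an, the asparagine hydroxylase that limits HIF's activity, was at 7.86 and 7.16 in Ackr4ko and at 8.13 and 7.39 in WT, and the groups overlapped.

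The HIF subunits and Vhl were close to equal between the labels. Hif1a, the main oxygen-regulated subunit, was at 10.54 and 10.31 in Ackr4ko and at 10.72 and 10.41 in WT, a difference of -0.14 ± 0.33. Epas1, which encodes the HIF-2 alpha subunit, was at 11.21 and 11.50 in Ackr4ko and at 11.39 and 11.32 in WT, and its mean difference was 0.001 ± 0.33. HIF alpha subunits are controlled mainly as proteins, which an array does not measure. For Epas1 the other 2 probes were well above background on 1 and 0 arrays, so this level rests on 1 probe. Arnt, the constant partner subunit, was at 10.79 and 10.61 in Ackr4ko and at 10.52 and 10.52 in WT. Its second tested probe differed by 1.05 where the brightest one differed by 0.18, so the 2 probes disagree. Vhl was at 11.96 and 12.19 in Ackr4ko and at 11.98 and 12.23 in WT, a difference of -0.033 ± 0.33.

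Promoters are given for Egln3, Apold1, P4ha2 and Vegfa, which had the largest differences as measured, including values not well above background, to show the letters HIF is known to bind. Each sequence is 300 bases of the gene's own strand, 250 before to 50 after the start in RefSeq on GRCm38.p6, and capitals mark the HIF core letters ACGTG or GCGTG (on the opposite strand CACGT or CACGC).
Egln3, chr12:54203825-54204124, minus strand: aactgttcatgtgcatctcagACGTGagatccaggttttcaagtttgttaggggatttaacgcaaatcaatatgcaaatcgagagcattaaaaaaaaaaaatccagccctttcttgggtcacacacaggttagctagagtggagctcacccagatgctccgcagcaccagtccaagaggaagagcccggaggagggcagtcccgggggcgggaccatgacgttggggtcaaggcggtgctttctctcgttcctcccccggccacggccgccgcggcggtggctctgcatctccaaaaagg
Apold1, chr6:134981751-134982050, plus strand: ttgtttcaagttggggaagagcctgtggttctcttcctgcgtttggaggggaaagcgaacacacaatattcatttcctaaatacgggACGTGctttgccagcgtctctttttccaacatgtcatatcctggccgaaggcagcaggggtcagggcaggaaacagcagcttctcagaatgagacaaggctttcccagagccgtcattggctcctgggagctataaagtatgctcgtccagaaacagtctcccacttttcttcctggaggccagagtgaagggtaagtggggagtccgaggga
P4ha2, chr11:54100674-54100973, plus strand: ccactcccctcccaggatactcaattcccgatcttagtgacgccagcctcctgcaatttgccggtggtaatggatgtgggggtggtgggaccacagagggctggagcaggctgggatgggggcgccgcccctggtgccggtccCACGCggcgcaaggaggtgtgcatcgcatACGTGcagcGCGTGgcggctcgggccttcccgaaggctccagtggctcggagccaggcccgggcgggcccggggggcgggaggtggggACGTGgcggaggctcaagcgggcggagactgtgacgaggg
Vegfa, the second of 2 RefSeq starts, chr17:46025114-46025413, minus strand: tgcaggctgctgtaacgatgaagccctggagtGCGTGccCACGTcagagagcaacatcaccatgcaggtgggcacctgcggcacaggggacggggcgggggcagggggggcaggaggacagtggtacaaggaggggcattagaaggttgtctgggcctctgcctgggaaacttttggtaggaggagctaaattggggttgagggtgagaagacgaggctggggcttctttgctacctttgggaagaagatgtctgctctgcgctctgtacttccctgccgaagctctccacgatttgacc
Egln3 and Apold1 hold 1 match each, at -229 and -163 from the start, and P4ha2 holds 4, at -107, -78, -69 and 11. The Vegfa window shown holds 2, but it belongs to the downstream of the 2 starts. The window at the upstream Vegfa start, chr17:46032328-46032627, holds 0. Vegfa is counted below through the downstream window alone, and its letters there say nothing about the upstream promoter. Among the 29 hypoxia response genes with a window in the RefSeq table that can be shown, 27 (93.1%) held the letters on either strand, against 65.5% of 9721 tested genes with a window and 43.8% of all 32851 windows. The letters overlap the E-box CACGTG, which stood in 7.15% of windows. Hif1an and Vhl had none in their windows. A match is only letters in a window and shows neither a binding site nor why a signal differs. Windows for Epas1, Bnip3l, Plod2 and Ndrg1 were not analysed here.

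Genes that act on mitochondria were brightest on an array labelled Ackr4ko in all 5 cases and lowest on the WT array of experiment 1 in all 5. Of all 15982 tested genes, 2659 were brightest on the Ackr4ko array of experiment 1 and 7245 on that of experiment 2. The WT array of experiment 1 was the lowest for 23.7% of them. Bnip3, whose product marks mitochondria for removal by autophagy, was at 15.20 and 15.63 in Ackr4ko and at 12.58 and 15.12 in WT. The groups did not overlap, but the WT array of experiment 1 stood far below the other 3. The difference was 1.56 ± 0.70 (SE, n = 2 each, limma unadjusted p = 0.0531 without a block, and adjusted p = 0.000535 with it). It was 2.62 in experiment 1 and 0.51 in experiment 2, and 0.29 without that WT array and 2.84 without the other. The 3 Bnip3 probes gave differences within 0.218 of each other. Its relative Bnip3l, known for clearing mitochondria from maturing red cells, was at 15.31 and 15.49 in Ackr4ko and at 13.72 and 15.07 in WT, a difference of 1.00 ± 0.46 that did not pass with the block either (limma adjusted p = 0.0956). It was 0.33 without the WT array of experiment 1 and 1.68 without that of experiment 2.

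Fam162a and Higd1a differed by similar amounts in both experiments. Fam162a, whose product human studies tie to hypoxic cell death, was at 15.45 and 16.49 in Ackr4ko and at 14.16 and 15.26 in WT. Within each experiment the Ackr4ko array was brighter, by 1.28 and 1.23, but the Ackr4ko value of experiment 1 and the WT value of experiment 2 lay close together, at 15.45 and 15.26. The mean difference was 1.26 ± 0.48 (SE, n = 2 each, limma adjusted p = 0.956, and 0.0129 with the block). It was 0.71 without the WT array of experiment 1 and 0.74 without the Ackr4ko array of experiment 2, and its probe lies on chromosome 16 at 36044032 to 36044091 of mm9. Higd1a, a respiratory chain assembly factor, differed by 0.57 and 0.53, a mean of 0.55 ± 0.45, and Pdk1, the kinase that keeps pyruvate out of mitochondria, by 0.74 ± 0.49 with opposite signs in the experiments (1.80 and -0.32). Neither passed the test with or without the block.

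Among genes of transport and pH, the lactate exporter Slc16a3 (MCT4) stood apart. It was at 14.04 and 13.12 in Ackr4ko and at 10.86 and 13.06 in WT. In experiment 2 the 2 values were nearly equal, so nearly all of the difference came from experiment 1 (3.18, against 0.067 in experiment 2). The mean difference was 1.63 ± 0.66 (SE, n = 2 each, limma adjusted p = 0.996, and 0.000247 with the block). It was 0.53 and 2.73 without the WT array of experiment 1 and of experiment 2. The glucose transporter Slc2a1 (GLUT1) had a similar split on a smaller scale, with 1.1 in experiment 1 and -0.21 in experiment 2. Car9, a carbonic anhydrase of the cell surface that is among the most HIF-dependent genes in tumours, differed by 0.85 and 0.89 in the 2 experiments, a mean of 0.87 ± 0.48 that did not pass with either fit. It was 0.35 without the WT array of experiment 1 and 0.33 without the Ackr4ko array of experiment 2, and 1.41 and 1.39 without the other Ackr4ko and the other WT array. Pfkfb3 and Pfkfb4, which make the activator of phosphofructokinase, differed by 0.17 ± 0.35 and -0.29 ± 0.33.

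**Figure D2:**
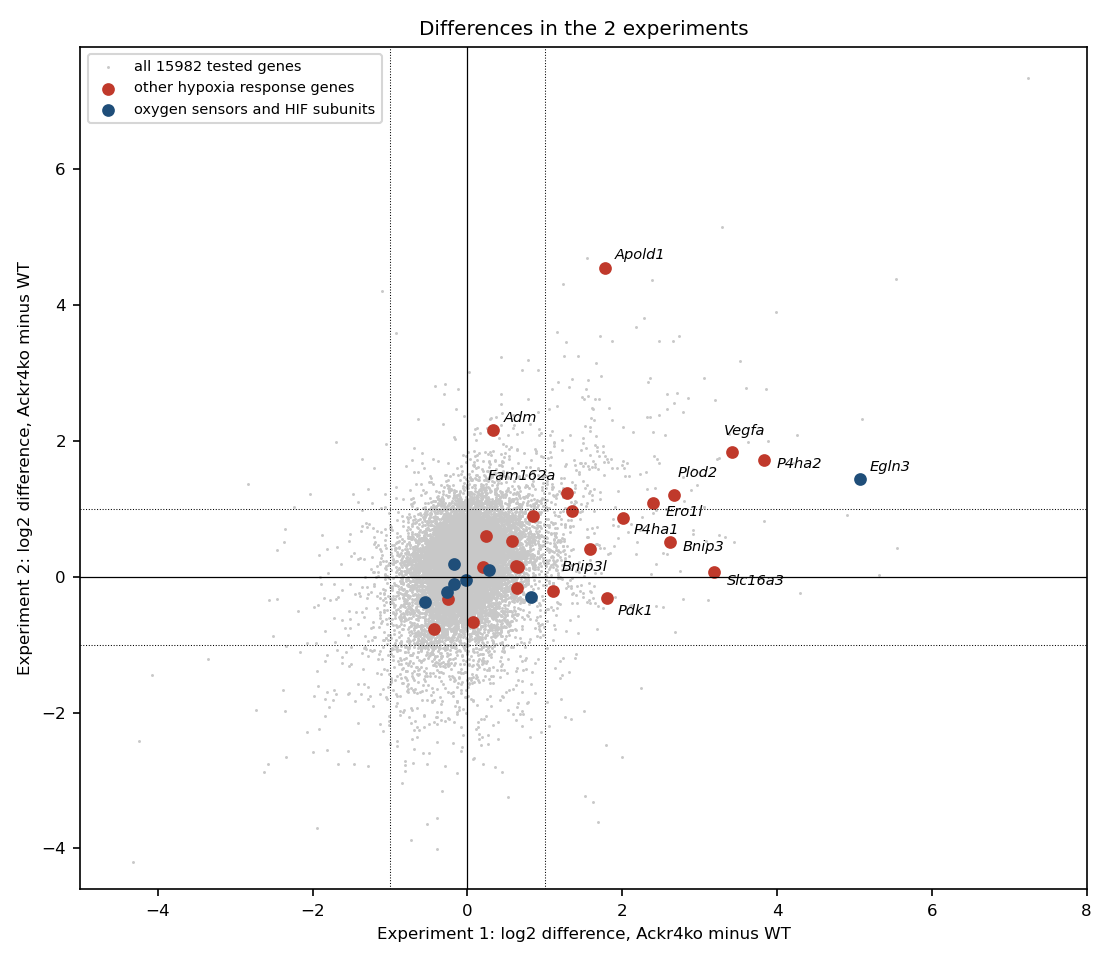
Log2 difference, Ackr4ko minus WT, in experiment 1 (horizontal) and experiment 2 (vertical) for all 15982 tested genes (grey) and the 32 tested hypoxia response genes (red, and blue for oxygen sensors and HIF subunits), with dotted lines at 2-fold. Of these 32, 7 lie past 2-fold in both experiments in the upper right, P4ha2 and Plod2 among them with WT values not well above background, 7 in experiment 1 alone and 1, Adm, in experiment 2 alone.

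Among the enzymes that act on collagen and other proteins in the endoplasmic reticulum, P4ha1 and Ero1l passed with the block on levels measured in both groups, while P4ha2 and Plod2 have only bounds. P4ha2, a catalytic subunit of collagen prolyl 4-hydroxylase, was at 6.73 and 6.50 in Ackr4ko and at 2.90 and 4.78 in WT, where neither array was well above background. Set against the lowest signal that counted as above background on the WT arrays, it was at least 2.89-fold higher in Ackr4ko over the mean of both experiments. The bound on its difference was 2.41 in experiment 1 and 0.65 in experiment 2. From the measured values limma gave an adjusted p of 0.251 without a block. Its probe lies on chromosome 11 at 53945032 to 53945091 of mm9. Plod2, which hydroxylates lysine in collagen before cross-linking, was at 6.57 and 5.86 in Ackr4ko and at 3.91 and 4.67 in WT, again not well above background in WT. It was at least 2.2-fold higher in Ackr4ko over the mean of both experiments (limma adjusted p = 0.285 from the measured values). The bound on its difference was 2.26 in experiment 1 but only 0.022 in experiment 2. Its probe lies on chromosome 9 at 92502483 to 92502542 of mm9. With WT at that lowest signal the block gave adjusted p-values of 0.000624 and 0.031 (limma), which support nothing further, since both genes entered the test through Ackr4ko alone. With normexp correction the differences were 1.03 for P4ha2 and 0.57 for Plod2.

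Brighter genes of this kind behaved alike. P4ha1, the other catalytic subunit, was at 9.06 and 8.92 in Ackr4ko and at 7.05 and 8.05 in WT. Its difference was 1.44 ± 0.40 (SE, n = 2 each, limma adjusted p = 0.592, and 0.0021 with the block), or 0.94 without the WT array of experiment 1. Ero1l, the oxidase that forms disulfide bonds in secreted proteins, was at 10.32 and 10.06 in Ackr4ko and at 7.91 and 8.98 in WT. For both genes the groups did not overlap and the WT array of experiment 1 was the lowest. Ero1l differed by 1.74 ± 0.41 (SE, n = 2 each, limma adjusted p = 0.407, and 5.47e-05 with the block), with 2.40 in experiment 1 and 1.09 in experiment 2, and its probe lies on chromosome 14 at 45904192 to 45904251 of mm9.

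For Plod1 and Lox no direction was settled. Plod1 was at 4.94 and 3.89 in Ackr4ko and at 5.37 and 4.66 in WT, above background only on the arrays of experiment 1, and its difference of -0.60 ± 0.44 had no call and was 0.14 after quantile normalization. Lox, the secreted enzyme that cross-links collagen and a common HIF target in fibroblasts, was not well above background on any array.

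Vegfa, Adm and Apold1, the genes tied to blood vessels, all passed with the block. Vegfa, the main growth factor for blood vessels, was at 9.95 and 9.45 in Ackr4ko and at 6.53 and 7.61 in WT, well above background on all 4 arrays. The groups stood apart in both experiments. The difference was 2.63 ± 0.43 (SE, n = 2 each, limma adjusted p = 0.191, and 1.6e-11 with the block), which is 6.19-fold, with 3.42 in experiment 1 and 1.84 in experiment 2, and its second probe was within 0.147. Vegfa had the smallest unadjusted p among the 32 genes, 0.000203, and its probe lies on chromosome 17 at 46154387 to 46154446 of mm9.

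Adm and Apold1 differed more in experiment 2. Adm, the peptide hormone adrenomedullin, was at 10.66 and 11.31 in Ackr4ko and at 10.33 and 9.15 in WT, with differences of 0.33 and 2.16. Their mean was 1.25 ± 0.45 (SE, n = 2 each, limma adjusted p = 0.893, and 0.0145 with the block), or 0.66 without the WT array of experiment 2. Apold1, an early response gene of vessel lining cells, was at 7.25 and 10.04 in Ackr4ko and at 5.48 and 5.49 in WT, where the second value was not well above background. The Ackr4ko array of experiment 2 was the high one. Its difference was 3.16 ± 0.74 as measured (SE, n = 2 each, limma adjusted p = 0.397, and 1.3e-16 with the block). With the dim WT value raised to the lowest signal well above background it was 2.98 (limma adjusted p = 0.558, and 2.76e-15 with the block). Its second probe gave 2.25 as measured, and the probe used lies on chromosome 6 at 134936562 to 134936621 of mm9. Apold1 differed by 1.77 without the Ackr4ko array of experiment 2.

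Since Vegfa and Apold1 are also made by vessel and stromal cells, markers of those cells were read beside them. Of 12 such markers, 5 and 2 were well above background in Ackr4ko and 5 and 2 in WT, log2 of their summed signal was 12.56 and 12.81 in Ackr4ko against 12.89 and 12.86 in WT, and Tie1, Tek, Emcn, Col1a1, Col3a1, Pdgfrb and Esam were not well above background on any array. More dendritic cell markers were detected in Ackr4ko. Of 10, 6 were well above background on each array labelled Ackr4ko and 4 on each labelled WT. Log2 of the summed signal was 16.60 and 17.18 in Ackr4ko against 16.65 and 16.81 in WT. That sum mainly follows the brightest of the 10. Siglech was at 15.66 and 16.03 in Ackr4ko and at 15.87 and 15.83 in WT. Ccr7 was at 15.15 and 16.15 in Ackr4ko and at 15.23 and 15.67 in WT. The median difference of the 6 tested was 1.03 as measured. Batf3 and Fscn1 raise that median by the way they were chosen, since they entered the test through Ackr4ko alone and had to be brighter. Batf3 and Fscn1 were at least 2.59-fold and at least 2.4-fold higher in Ackr4ko over the mean of both experiments. Flt3 and Zbtb46 differed by 1.07 and 0.995. Siglech and Ccr7 differed by -0.009 and 0.20, each with opposite signs in the 2 experiments, so the detected markers did not move together. Itgax, Xcr1, Clec9a and Cd209a were not well above background on any array. Which cells of the culture gave these marker signals was not measured, so they do not count dendritic cells. The part of such cells in the hypoxia genes' differences was not tested. Macrophage and monocyte markers had a log2 sum of 15.22 and 14.83 in Ackr4ko and of 15.55 and 15.62 in WT, and T cell markers one of 12.23 and 12.47 in Ackr4ko against 12.59 and 12.88 in WT.

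The remaining genes varied less. The dioxygenases Kdm3a, a histone demethylase, and Jmjd6, a lysyl hydroxylase, had Ackr4ko values above both WT values. Kdm3a was at 12.51 and 12.10 in Ackr4ko and at 11.89 and 11.94 in WT, and Jmjd6 was at 10.02 and 10.34 in Ackr4ko and at 9.78 and 9.73 in WT. Their differences, 0.39 ± 0.33 and 0.42 ± 0.33, did not pass the test with or without the block. Ankrd37, an ankyrin repeat gene used as a HIF reporter in human cells, was at 13.77 and 14.57 in Ackr4ko and at 12.42 and 13.60 in WT. It was brighter in both experiments, by 1.35 and 0.97, a mean of 1.16 ± 0.47 (SE, n = 2 each, limma adjusted p = 0.996, and 0.0292 with the block). That mean was 0.57 and 1.75 without the WT array of experiment 1 and of experiment 2, and 0.76 without the Ackr4ko array of experiment 2.

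Ddit4, a brake on mTORC1, was at 14.43 and 14.99 in Ackr4ko and at 13.78 and 15.15 in WT, with opposite signs in the 2 experiments. Ndrg1, a differentiation-associated gene induced by hypoxia in many tissues, differed by 0.40 ± 0.34, and Narf, a nuclear gene that binds prelamin A, by -0.30 ± 0.36. None of these 3 passed the test with or without the block. Mxi1, which opposes MYC, was not well above background on any array.

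The difference between the labels was larger in experiment 1 for most of these genes. It was larger in size there for 23 of 32 (71.9%), against 36.2% of all tested genes, and 7 genes passed 2-fold in experiment 1 alone, Bnip3, Bnip3l, Pdk1, Slc2a1, Slc16a3, P4ha1 and Ankrd37. The WT array of experiment 1 was the lowest of the 4 for 20 of 32 (62.5%), against 23.7% of all genes. Among the 20 are P4ha2 and Plod2, whose WT values were not well above background. Between the 2 WT arrays the median change, experiment 2 minus experiment 1, was 0.67, against -0.081 over all genes, and between the 2 Ackr4ko arrays it was -0.22, against 0.133. The 2 WT arrays stood further apart than the genotype means did for 17 of 32 (53.1%), a share close to the 57.1% of all genes. Without the WT array of experiment 1 the median difference was 0.31. Without the WT array of experiment 2, the one with the most outlier spots, it was 0.83.

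**Figure D3:**
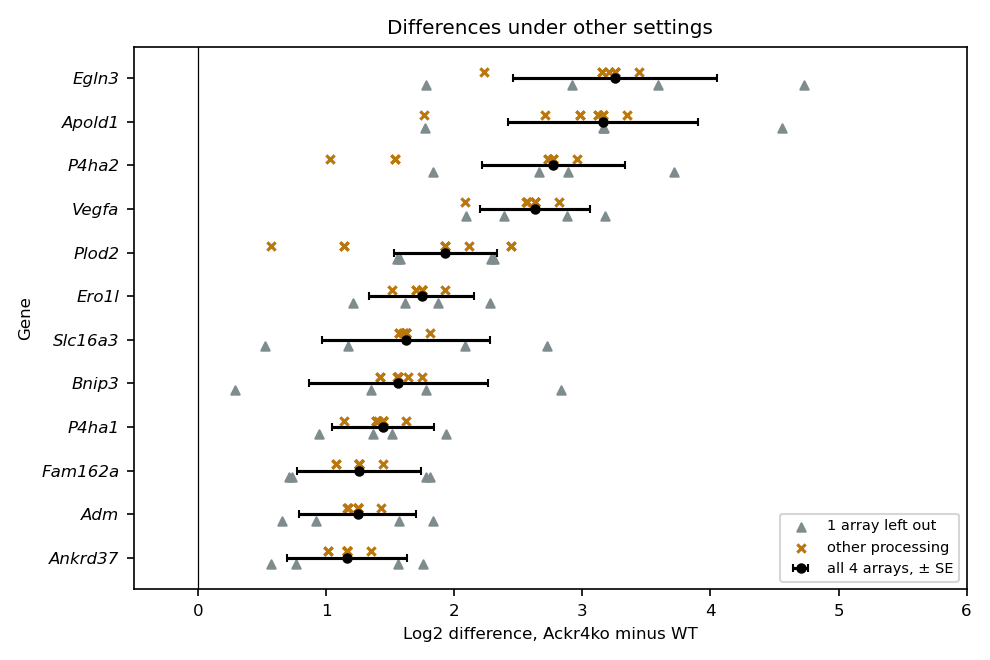
Log2 difference, Ackr4ko minus WT, for the 12 genes that passed with the block: the value from all 4 arrays with its standard error (black), the values with 1 array left out (grey triangles) and the values under other processing (brown crosses). Every value shown is above 0, and the lowest is 0.29, for Bnip3 without the WT array of experiment 1. The 12 were chosen by that fit on these same arrays, and P4ha2 and Plod2 had to be brighter.

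Values under other processing are shown for the same 12 genes in the plot of differences under other settings, which leaves out the authors' value table. The sign of all 12 was kept there, but they were chosen by the block fit on these same arrays, so a kept sign supports nothing further. P4ha2 and Plod2 also had to be brighter, since they entered the test through Ackr4ko alone. The size ranged for Egln3 between 1.78 and 4.73 depending on which array was left out, for Ero1l between 1.21 and 2.28 and for Vegfa between 2.09 and 3.17.

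Other parts of the pathway were read from lists of genes outside the 34. A list of 39 further genes known to be induced by hypoxia, of which 31 were tested, had a median difference of 0.50, with 10 at least 2-fold brighter in Ackr4ko in experiment 1, 8 in experiment 2 and 6 in both, against 3.09%, 6.08% and 1.28% of all tested genes, and with 1, 3 and 1 at least 2-fold dimmer, against 1.56%, 3.98% and 0.513%. With the block limma called 9 of the 31, 7 brighter (Vldlr, Rora, Nfil3, Spag4, Hilpda, Rcor2 and Bhlhe40) and 2 dimmer (Irs2 and Ppfia4), against 3.31% of all tested genes, and without it 0, with 8 at an unadjusted p under 0.05. Rora, a nuclear receptor gene, entered the test through Ackr4ko alone, so it had to be brighter, and its call supports nothing further. The counts above use its values as measured. It was not well above background in WT and was at least 3.5-fold higher in Ackr4ko over the mean of both experiments (limma adjusted p = 0.118 from the measured values, without the block). Spag4, a HIF target in kidney tumours, was at 6.89 and 6.85 in Ackr4ko and at 5.45 and 5.33 in WT, and 1 of its 2 WT values was well above background. Vldlr differed by 5.55 and 0.43 as measured, and 1 of its 2 WT values was well above background. Ppfia4 differed by -0.40 and -4.0 as measured, and 1 of its 2 Ackr4ko values was well above background.

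The 21 tested genes among 23 further regulators of HIF had a median of 0.27, with 2 at least 2-fold brighter in each experiment and 0 in both, and limma called none without or with the block, where 0 and 4 had an unadjusted p under 0.05. The smallest p values there belonged to Wsb1, with a difference of 0.68, and the coactivator Crebbp, with -0.71. Of 17 glycolytic enzymes, 16 were tested, with a median of 0.66 and with 7 at least 2-fold brighter in experiment 1, 2 in experiment 2 and 2 in both. The shares of all tested genes past 2-fold were 3.09%, 6.08% and 1.28%. The block called 3 of the 16, Eno2, Hk2 and Pfkp, against 3.31% of all. After quantile normalization the block called 0 genes, so the calls of these lists are lost too. Eno2, the neuronal enolase gene, was at 8.20 and 10.09 in Ackr4ko and at 6.01 and 6.42 in WT, and only 1 of its 2 WT values was well above background.

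**Figure D4:**
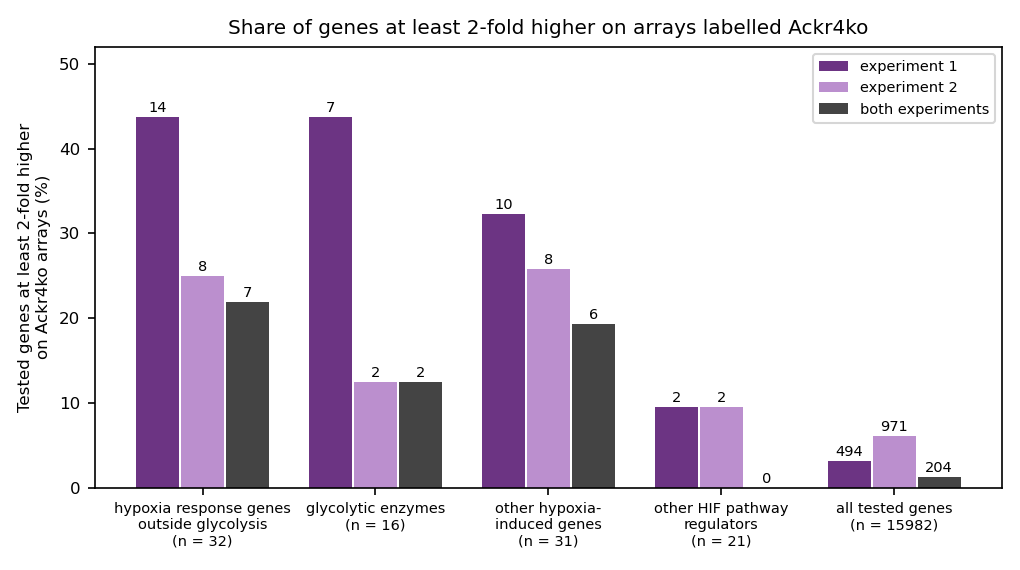
Share of tested genes at least 2-fold brighter on the array labelled Ackr4ko in experiment 1, in experiment 2 and in both, for the 32 tested hypoxia response genes, 3 related lists and all 15982 tested genes, with the number of genes above each bar. The hypoxia response genes have 14, 8 and 7 genes past 2-fold, against 494, 971 and 204 of all tested genes, with values not well above background used as measured.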

How the data were processed

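Total RNA of cultured B cells was labelled with Cy3 and hybridised to Agilent 1-colour arrays. The deposited scanner files hold the intensity of every spot as a processed signal, with flags and with probe positions on mm9. The submitters' processing notes name Agilent Feature Extraction (version 10.7.3.1) as the program behind them. The authors' deposited value table holds normalized intensity per probe, and how it was normalized is not given in the sources used here. Log2 of the processed signal was scaled by subtracting the 75th percentile of the array and adding back the mean percentile (9.88). Control and outlier-flagged spots were left out and the 4 spots of a probe averaged. Tests took probes of which 50% or more spots rose well above background on 2 or more of 4 arrays, and the brightest tested probe stood for its gene.

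Tests used limma (version 3.58.1, R 4.3.3) with lmFit, eBayes and two-sided Benjamini-Hochberg adjusted p-values, and were checked on simulated data. Replicate numbers mark the 2 experiments given in the series description, which pairs the arrays. Deviations within an experiment had a correlation of 0.42. Nothing in the labels says whether an array holds 1 animal, and p-values measure the spread between these arrays only. With the block that spread is pooled over all genes. Every gene then has an SE of 0.348, and its own spread does not enter its p. The number of arrays limits precision. Four-array values were printed for genes at least 2-fold different in both experiments, called genes, oxygen sensors, HIF subunits and the gene of each role with the largest difference, and also for Bnip3l, Plod1, Kdm3a and Ddit4, chosen after their values were seen. From other lists, called genes or the 2 with the smallest p were named. The genes and lists were chosen with earlier results of these data known. Alternatives were quantile and median normalization, normexp correction, the background requirement, mean of probes, the block, the value table and leaving out each array. Block after quantile normalization and a floor for values not well above background were added after seeing the data.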

Additional observations from a re-analysis of the deposited data

How the results depend on the processing

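The tested genes' median difference stayed above 0 under every alternative run on the scanner files, from 0.37 after quantile normalization to 0.68 after median normalization, and from 0.31 to 0.83 with 1 array left out. Genes called were 2 in all and 0 of the 32 hypoxia genes in the reported fit. Calls moved to 1 and 0 after quantile normalization, to 188 and 8 after median normalization (which shifts the median of all genes by about the same amount, to 0.268 against 0.083), to 19 and 2 (Egln3 and Vegfa) with normexp, to 0 with no background requirement (294 at an unadjusted p under 0.05) and to 0 when all 4 arrays had to be well above background (524). With the replicate block they were 529 and 12, and with the block after quantile normalization 0. With each array left out in turn, between 1 and 122 genes and between 0 and 8 hypoxia genes were called. A lone array of a group is there assumed to vary like the other group, and no count over both experiments could be had. With values not well above background set to the lowest signal well above it, added after seeing the data, calls were 1 and 0, and 481 and 12 with the replicate block. P4ha2 and Plod2 are among the 8 after median normalization and the 12 with the block, with or without that floor. Their calls support nothing further, since they entered the test through Ackr4ko alone. Hypoxia genes at least 2-fold different in both experiments were 7. They were 5 with that floor, 5 after quantile normalization, 9 after median normalization, 5 by the value table, 3 with normexp and 3 when all 4 arrays had to be above background, which removes Egln3, P4ha2, Plod1, Plod2 and Apold1. The cause of the other moves was not tested.

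Signs changed for Plod1, from -0.60 to 0.14, and for genes near 0: Epas1 to -0.09 after quantile normalization, as for Plod1 with or without the block, Vhl to 0.15 and Hif1a to 0.044 after median normalization and Epas1 to -0.017 with normexp. With 1 array left out the ranges crossed 0 for Egln1 (-0.17 to 0.70), Hif1an (-0.62 to 0.12), Vhl (-0.16 to 0.094), Hif1a (-0.29 to 0.012), Epas1 (-0.15 to 0.15), Pfkfb3 (-0.047 to 0.39), Ddit4 (-0.44 to 0.93) and Narf (-0.64 to 0.035). By the column names of the authors' value table, 1 gene was called, the median was -0.36 and 30 of the 32 genes turned round: Egln1 (-0.18), Egln3 (-3.12), Arnt (-0.13), Bnip3 (-1.41), Bnip3l (-0.85), Higd1a (-0.35), Fam162a (-1.06), Pdk1 (-0.71), Slc2a1 (-0.35), Slc16a3 (-1.57), Pfkfb3 (-0.088), Car9 (-0.72), P4ha1 (-1.40), P4ha2 (-2.36), Plod2 (-2.25), Ero1l (-1.70), Vegfa (-2.64), Adm (-1.17), Apold1 (-3.07), Kdm3a (-0.30), Jmjd6 (-0.37), Ddit4 (-0.11), Ndrg1 (-0.33) and Ankrd37 (-1.01) were dimmer in Ackr4ko, and Egln2 (0.60), Hif1an (0.24), Vhl (0.15), Hif1a (0.21), Pfkfb4 (0.35) and Narf (0.33) were brighter. The 2 sets of labels cannot both hold. Signal near background limits P4ha2, Plod1 and Plod2 to bounds or no call.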
